A study of Homo sapiens with 12 samples.

Results

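The genes described here are 10 members of the Notch pathway: the receptors NOTCH1, NOTCH2 and NOTCH3, the ligands JAG1, JAG2 and DLL1, the receptor-modifying enzyme LFNG, the feedback inhibitor NRARP, and the targets HES1 and HEY1. They were chosen by name from the 37247 gene rows of the expression tables, with the treated-against-parent results of these tables already known, so their differences are given as a description and carry no test. Each of the 10 symbols matched 1 row by its Ensembl identifier. The study sequenced RNA of 2 established human lines that its title describes as RET-aberrant. LC-2/ad, a lung adenocarcinoma line, was grown in RPMI-1640 with F-12 and serum. TPC-1, a line of papillary thyroid carcinoma, was grown in RPMI-1640 with serum. The parent cells of each line had no treatment. The treated cells of each line were kept for 48 h in 100 nM selpercatinib, an inhibitor of the receptor tyrosine kinase RET. Each of the 4 groups had 3 libraries, 12 in all, and the labels do not say whether those came from separate cultures or whether parent cells received the drug's solvent. Each group is thus a single established line, with no second line of its tissue.

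Notch signalling passes between touching cells. A Delta or Jagged ligand on one cell binds a Notch receptor on its neighbour, the receptor is cut by ADAM proteases and then by gamma-secretase, and the freed intracellular domain enters the nucleus, where it joins the DNA-binding protein RBPJ and a Mastermind coactivator and switches on genes such as the HES and HEY repressors. In the lung the pathway is known for steering epithelial progenitors between fates.

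The stretches of DNA before the start of HES1, NRARP and LFNG are printed because these genes had the largest differences among the members at 1 TPM or more in every LC-2/ad library. TPM is the deposited level of a transcript, scaled for gene length and library size. The sequences are the 250 bases before each RefSeq gene start (GRCh38.p14), 5′ to 3′ on the gene's strand, with every TGGGAA, the core of the sequence that RBPJ binds, in capitals. LFNG has a pair of RefSeq starts, and both are shown.
HES1 (chr3:194135898-194136147, plus strand): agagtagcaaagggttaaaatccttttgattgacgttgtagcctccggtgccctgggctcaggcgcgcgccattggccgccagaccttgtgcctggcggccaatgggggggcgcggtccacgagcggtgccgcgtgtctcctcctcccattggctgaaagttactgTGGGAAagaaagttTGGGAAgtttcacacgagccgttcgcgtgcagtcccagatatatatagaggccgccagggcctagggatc
NRARP (chr9:137302272-137302521, minus strand): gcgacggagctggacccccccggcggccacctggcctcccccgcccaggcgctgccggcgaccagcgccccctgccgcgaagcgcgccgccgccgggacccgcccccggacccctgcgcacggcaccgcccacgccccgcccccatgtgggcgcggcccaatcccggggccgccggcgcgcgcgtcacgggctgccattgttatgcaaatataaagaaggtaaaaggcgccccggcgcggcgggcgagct
LFNG, first start (chr7:2512279-2512528, plus strand): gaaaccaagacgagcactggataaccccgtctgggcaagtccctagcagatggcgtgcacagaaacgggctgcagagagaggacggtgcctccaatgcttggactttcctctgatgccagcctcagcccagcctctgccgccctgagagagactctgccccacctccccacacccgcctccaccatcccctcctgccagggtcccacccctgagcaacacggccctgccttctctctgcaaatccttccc
LFNG, second start (chr7:2517613-2517862, plus strand): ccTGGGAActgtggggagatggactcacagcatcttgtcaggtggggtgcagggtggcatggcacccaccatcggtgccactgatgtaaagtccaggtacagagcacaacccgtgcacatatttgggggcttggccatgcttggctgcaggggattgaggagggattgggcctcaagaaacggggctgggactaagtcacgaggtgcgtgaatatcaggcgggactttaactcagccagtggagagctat
The HES1 window held 2 copies of TGGGAA, 84 and 70 bases before the start and both on the gene's strand. It also held 3 copies of the N box CACNAG, the element that HES proteins bind, at 165, 132 and 58 bases before the start, the farthest on the opposite strand. Over 35116 RefSeq windows of this length, 20.85% held TGGGAA or its reverse TTCCCA and 32.04% held CACNAG or its reverse CTNGTG. The window at the second LFNG start held TGGGAA at 248 bases and CACNAG at 53 bases before the start, and the NOTCH3 window held CACNAG at 211 bases. The windows of NRARP, JAG1, JAG2, NOTCH1, NOTCH2 and the first LFNG start held neither. A match is only a run of letters, and binding was not measured.

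The libraries are described by their TPM, which keep no read totals, so the depth is unknown and the spread between libraries is the only measure of precision. The number of genes at 1 TPM or more ranged from 13713 to 14336 over the LC-2/ad libraries, and the TPC-1 libraries had 12554 to 12967. Transcripts of mitochondrial DNA took 9.72% to 9.82% of TPM in LC-2/ad parent libraries and 14.0% to 15.0% in treated ones. On the main axis of variation of TPC-1 parent library 1 lay at -4.93, against -23.3 and -17.7 for the other parent libraries, so the TPC-1 differences of the members are also given without it. DUSP6, a phosphatase gene that ERK signalling induces, went from 160 ± 2.83 to 12.9 ± 1.84 TPM in LC-2/ad and from 12.7 ± 1.18 to 5.91 ± 1.41 TPM in TPC-1 (mean ± SD, n = 3). Of the lineage markers, NKX2-1 (lung and thyroid) was at 105 TPM or more in LC-2/ad and listed at 0 in every TPC-1 library, while PAX8 (thyroid) was at 154 TPM or more in TPC-1. SFTPC, a differentiated product of the lung, was listed at 0 in every LC-2/ad library. The summed level of 5 blood markers stayed at or below 2.12 TPM in every library. The sum of 5 endothelial markers was 14.6 to 16.4 TPM in parent and 14.7 to 17.9 TPM in treated LC-2/ad libraries, most of it KDR, with CDH5 at 2.07 ± 0.176 and 3.63 ± 0.446 TPM and VWF at most 0.875 TPM. In TPC-1 it was at most 0.727 TPM. The sum of 5 fibroblast markers, most of it COL1A1, was 28.9 to 34.0 and 35.4 to 40.8 TPM in LC-2/ad, with LUM at 0.495 ± 0.0304 and 2.12 ± 0.591 TPM and DCN at most 0.433 TPM. In TPC-1 it was 31.4 to 33.9 and 26.5 to 36.2 TPM, with PDGFRB at 3.51 ± 1.63 and 3.69 ± 1.38 TPM. The part of these cell types in the results was not tested. Because these are bulk samples, fewer cells of a type and less RNA per cell cannot be told apart.

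**Figure D1:**
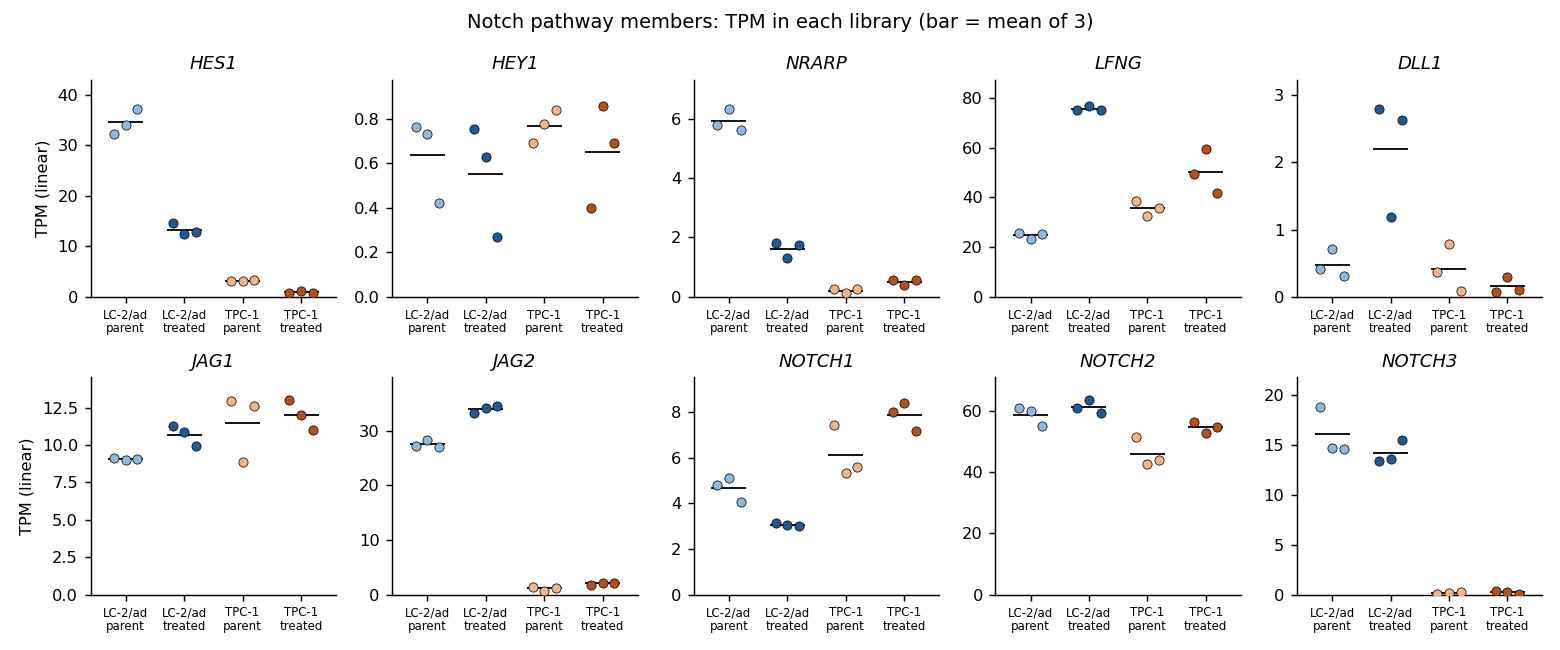
TPM of each of the 10 genes (vertical axes, linear, each with its own scale from 0) in every library of the 4 groups; each point is 1 library and each bar the mean of 3. HES1 was lower in the treated libraries of both lines, LFNG was higher in both, and NRARP was lower in LC-2/ad.

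Of the members listed as targets, HES1 and HEY1, only HES1 exceeded 1 TPM in any library. NRARP, which is also induced by Notch, and the HES and HEY genes outside the members are described below. HES1 (ENSG00000114315, chromosome 3, 194136145 to 194138732, plus strand, GRCh38) encodes a basic helix-loop-helix repressor that also represses its own promoter. In LC-2/ad its level was 32.3, 34.1 and 37.3 TPM in the parent libraries and 14.7, 12.4 and 12.8 TPM in the treated ones. Every treated library lay below every parent library, and the parent mean of 34.6 ± 2.50 TPM (SD, n = 3) was 2.60 times the treated mean of 13.3 ± 1.23 TPM. The difference was -1.31 ± 0.08 on the log2(TPM + 1) scale (SE of the fit across all genes), or -1.25 without mitochondrial transcripts, and its rank among falls was 281 over the 14118 genes tested.

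In TPC-1 the HES1 level was 3.09, 3.24 and 3.31 TPM in the parent libraries and 0.864, 1.15 and 0.786 TPM in the treated ones. The groups again did not overlap, although the whole range lay below that of LC-2/ad. The parent mean of 3.22 ± 0.113 TPM was 3.44 times the treated mean of 0.934 ± 0.193 TPM, and the log2 difference was -1.13 ± 0.16. It was the 31st largest fall of 12825 genes tested, and was -1.15 without parent library 1. The log2(TPM + 1) scale understates changes of low genes, and the size depended on the pseudocount. With 0.1 the log2 difference of HES1 was -1.70 in TPC-1 and -1.37 in LC-2/ad, and with 5 it was -0.47 and -1.11, so which line had the larger difference depended on this choice. The parent level of HES1 was 34.6 TPM in LC-2/ad against 3.22 TPM in TPC-1. The lines were deposited in separate tables, so parent levels are not tested against each other.

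HEY1 (ENSG00000164683), a related repressor and also a direct Notch target, stayed under 1 TPM in all 12 libraries. Its LC-2/ad values were 0.763, 0.731 and 0.420 TPM in parent cells and 0.755, 0.628 and 0.272 TPM in treated cells. In TPC-1 they were 0.691, 0.778 and 0.839 TPM against 0.400, 0.858 and 0.691 TPM. The groups overlapped in both lines, and at these levels no fold change was fitted.

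By Euclidean distance of log2(TPM + 1), centred within each line over the 12 libraries, the 3 profiles nearest to HES1 among 8916 genes with a mean of at least 5 TPM in each line were those of EGR1, G0S2 and PHLDA1, at distances of 0.44, 0.50 and 0.58. EGR1 encodes an immediate early transcription factor. Their log2 differences were -1.41, -1.21 and -1.62 in LC-2/ad and -1.31, -1.0 and -0.95 in TPC-1. The nearest profiles to HEY1, those of PNKD, NSL1 and PPIE (distances 0.29, 0.31 and 0.36), had log2 differences between -0.13 and -0.01. They resembled HEY1 in being nearly flat.

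NRARP (ENSG00000198435, chromosome 9, 137300482 to 137302251, minus strand) encodes a small ankyrin-repeat protein that is induced by Notch and dampens it by binding the intracellular domain complex. In LC-2/ad it was at 5.79, 6.33 and 5.60 TPM in parent libraries and at 1.80, 1.32 and 1.74 TPM in treated ones. All treated libraries were lower, with a parent mean 3.64 times the treated mean and a log2 difference of -1.40 ± 0.13, or -1.81 with a pseudocount of 0.1 and -0.72 with 5. In TPC-1 NRARP was at 0.263, 0.116 and 0.263 TPM before and 0.566, 0.388 and 0.565 TPM after treatment. Here the treated libraries were all higher, by a ratio of means of 2.37, but every value was under 1 TPM and no log2 difference was fitted. HES1 and NRARP were thus both lower after treatment in LC-2/ad. For TPC-1, HES1 was lower and NRARP, under 1 TPM throughout, was higher.

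LFNG (ENSG00000106003, chromosome 7, 2512529 to 2529177, plus strand) encodes lunatic fringe, a Golgi enzyme that extends O-fucose sugars on Notch receptors and alters which ligands activate them. In LC-2/ad its level was 25.8, 23.4 and 25.2 TPM in parent libraries and 75.1, 76.7 and 75.3 TPM in treated ones. The groups were far apart and tight, with a treated mean of 75.7 ± 0.881 TPM, 3.06 times the parent mean of 24.8 ± 1.23 TPM. The log2 difference of 1.57 ± 0.05 was the largest in size of any member at a pseudocount of 1, and 147th among the rises of the genes tested. In TPC-1 LFNG was at 38.5, 32.5 and 35.9 TPM before and 49.2, 59.5 and 41.9 TPM after treatment. The treated libraries were again all higher, but spread more, and the ratio of means was 1.41. The log2 difference in TPC-1 was 0.47 ± 0.12, 0.53 without parent library 1, and from 0.35 without treated library 2 to 0.59 without treated library 3 when each library was left out in turn. The LFNG difference in TPC-1 was 1.10 ± 0.15 smaller on the log2 scale than that in LC-2/ad (contrast -1.10). LFNG and JAG2 were the members whose treated libraries were all higher in both lines. Of these, LFNG alone was above 20 TPM in all 12 libraries.

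Among the ligands, DLL1 (ENSG00000198719, chromosome 6, 170282206 to 170306565, minus strand), a Delta-type ligand, had the largest ratio of means in LC-2/ad. It went from 0.418, 0.715 and 0.313 TPM to 2.80, 1.19 and 2.63 TPM, a ratio of means of 4.58 and a log2 difference of 1.08 ± 0.25. All treated libraries were above all parent ones, with treated library 2 well below the other 2. At these low levels the size depended on the pseudocount, with log2 differences of 1.96 at 0.1 and 0.39 at 5. DLL1 overlaps FAM120B on the opposite strand (mean 9.93 TPM over LC-2/ad and 12.5 TPM over TPC-1 libraries), and whether counting used strand is not given in the sources used here. In TPC-1 DLL1 was at 0.375, 0.791 and 0.0911 TPM against 0.0736, 0.290 and 0.105 TPM, and the groups overlapped.

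JAG2 (ENSG00000184916, chromosome 14, 105140981 to 105168824, minus strand), a Jagged-type ligand, was the main ligand transcript of LC-2/ad. It was at 27.2, 28.2 and 27.0 TPM in parent libraries and 33.3, 34.1 and 34.4 TPM in treated ones, all higher, with a log2 difference of 0.30 ± 0.05. In TPC-1 it was at 1.43, 0.690 and 1.27 TPM against 1.82, 2.15 and 2.17 TPM. The TPC-1 groups did not overlap either, and the log2 difference was 0.53 ± 0.20, or 0.64 without parent library 1 and 0.37 without parent library 2. It was 0.86 with a pseudocount of 0.1 and 0.20 with 5.

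JAG1 (ENSG00000101384, chromosome 20, 10637684 to 10673999, minus strand), the other Jagged-type ligand, was the main ligand transcript of TPC-1. In LC-2/ad it was at 9.15, 8.99 and 9.08 TPM before and 11.3, 10.9 and 9.92 TPM after treatment, a log2 difference of 0.21 ± 0.08 with no overlap. In TPC-1 the values were 12.9, 8.87 and 12.6 TPM against 13.0, 12 and 11.0 TPM. These overlapped, and the log2 difference of 0.07 ± 0.14 was smaller than its error. It was 0.16 without parent library 1 and -0.085 without parent library 2, the lowest of the parent ones.

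The leading ligand transcript was another in each line, and was the same one before and after treatment. JAG2 gave 74.2% ± 0.195 of the summed TPM of JAG1, JAG2 and DLL1 in parent LC-2/ad cells and 72.5% ± 1.91 in treated ones (SD, n = 3). In TPC-1 JAG1 gave 87.9% ± 2.28 and 84.4% ± 2.48. The share of DLL1 in LC-2/ad was 1.29% ± 0.531 in parent cells and 4.70% ± 1.85 in treated cells. The sum of the 3 ligands went from 37.0 ± 0.786 to 46.8 ± 0.626 TPM in LC-2/ad and from 13.0 ± 2.34 to 14.2 ± 0.839 TPM in TPC-1.

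**Figure D2:**
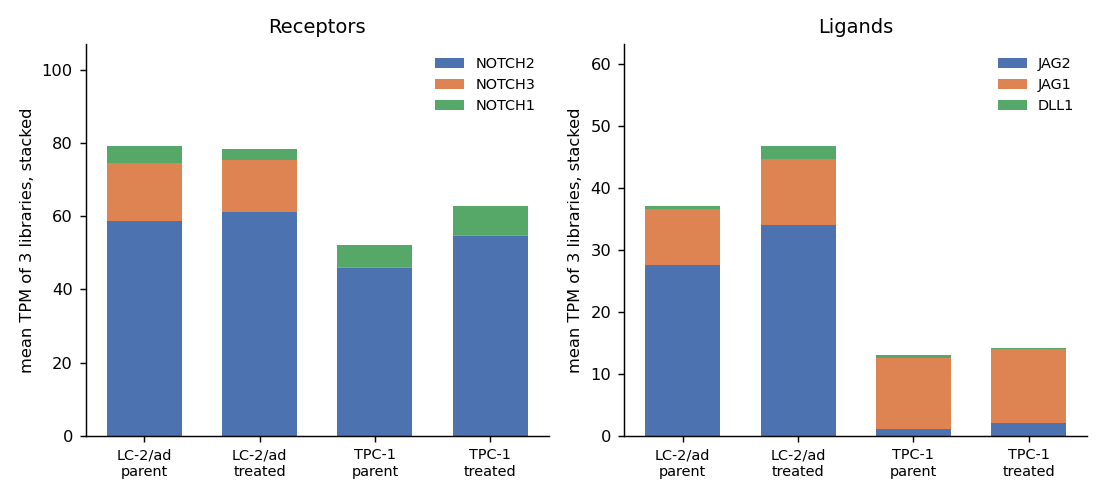
Stacked mean TPM (linear axis from 0, mean of 3 libraries, no error bars) of the 3 receptors at left and the 3 ligands at right in each of the 4 groups. NOTCH2 formed most of each receptor bar, while JAG2 led the ligands of LC-2/ad and JAG1 those of TPC-1.

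Of the receptors, the single-pass proteins that bind these ligands, NOTCH2 (ENSG00000134250, chromosome 1, 119911553 to 120069626, minus strand) was the most abundant receptor transcript in all 4 groups. In LC-2/ad it was at 60.9, 60.0 and 55.2 TPM before and 60.8, 63.4 and 59.5 TPM after treatment. These groups overlapped, and the log2 difference was 0.06 ± 0.05 with the deposited scaling and -0.03 with median-of-ratios scaling. In TPC-1 NOTCH2 was at 51.3, 42.5 and 44.1 TPM against 56.5, 52.8 and 54.7 TPM, with no overlap and a log2 difference of 0.25 ± 0.08, or 0.33 without parent library 1. NOTCH2 shares sequence with the human-specific paralog NOTCH2NLA, listed at 32.7 ± 4.10 and 60.8 ± 11.8 TPM in parent and treated LC-2/ad cells and 18.6 ± 5.17 and 25.9 ± 3.43 TPM in TPC-1. How reads were divided between the copies is not given, so the levels of both are uncertain.

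NOTCH1 (ENSG00000148400, chromosome 9, 136494433 to 136545786, minus strand) was at 4.82, 5.12 and 4.05 TPM in LC-2/ad parent libraries and 3.12, 3.05 and 3.02 TPM in treated ones. The treated libraries were all lower, with a log2 difference of -0.47 ± 0.12. In TPC-1 it was at 7.45, 5.31 and 5.61 TPM against 7.99, 8.38 and 7.18 TPM. There the treated mean was the higher one, but parent library 1 lay within the treated range, and the log2 difference was 0.32 ± 0.14, or 0.45 without that library. The log2 differences of NOTCH1 in the lines were 0.80 ± 0.18 apart.

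NOTCH3 (ENSG00000074181, chromosome 19, 15159038 to 15200981, minus strand) exceeded 1 TPM in LC-2/ad libraries only. Its LC-2/ad values were 18.8, 14.7 and 14.6 TPM in parent and 13.4, 13.6 and 15.5 TPM in treated libraries, which overlapped (log2 difference -0.16 ± 0.11). In TPC-1 no library exceeded 0.374 TPM. NOTCH2 gave 74.0% ± 1.70 and 78.0% ± 1.57 of the summed receptor TPM in LC-2/ad before and after treatment, and 88.0% ± 0.729 and 87.1% ± 1.15 in TPC-1. NOTCH3 gave 20.1% ± 1.96 and 18.0% ± 1.58 in LC-2/ad and NOTCH1 11.7% ± 0.878 and 12.5% ± 1.05 in TPC-1. The sum of the 3 receptors was 79.4 ± 5.38 and 78.4 ± 1.42 TPM in LC-2/ad, and 52.2 ± 5.79 and 62.7 ± 1.86 TPM in TPC-1.

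**Figure D3:**
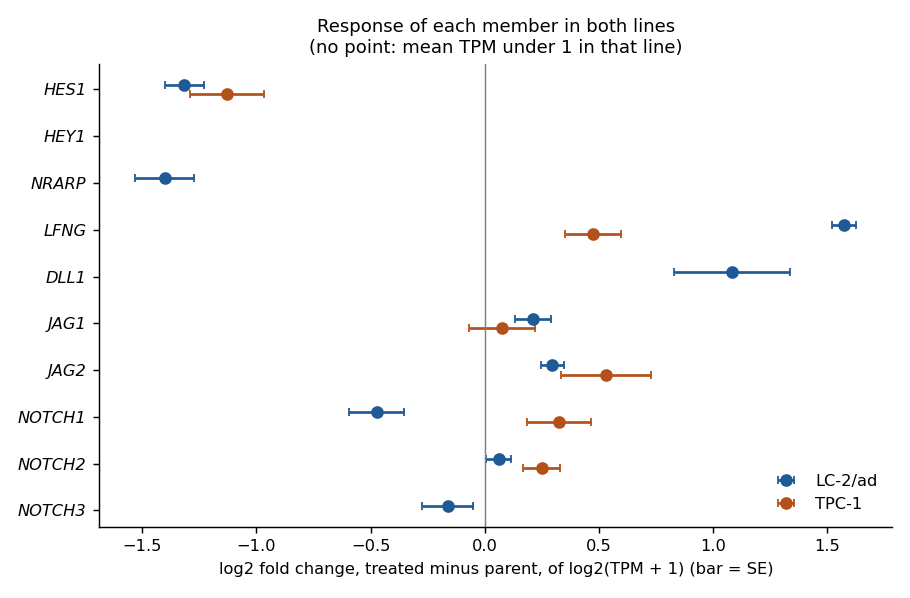
Log2 difference of log2(TPM + 1), treated minus parent (horizontal axis), for each gene and line, with bars for the SE; a gene with a mean below 1 TPM in a line has no point there. HES1 lay at -1.31 and -1.13 in the lines, LFNG at 1.57 and 0.47, and NOTCH1 on opposite sides of 0 at -0.47 and 0.32.

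Counted over the members, 9 of 10 passed the filter of a mean of 1 TPM in LC-2/ad, all but HEY1, and DLL1 passed it only through its treated libraries. For other genes a call means an adjusted p under 0.05 (limma, Benjamini-Hochberg over all genes tested). As a description and not a test, 3 members lay past that threshold on the higher side and 3 on the lower side in LC-2/ad, where 30.6% of all tested genes were called higher and 24.4% lower. The groups did not overlap for 7 members, 4 higher and 3 lower, beside 62.8% of all tested genes. In TPC-1 6 members passed the filter and 1 lay past the threshold, on the lower side, beside 3.75% of all tested genes called higher and 1.21% lower. Groups did not overlap for 4 of these 6, higher for NOTCH2, JAG2 and LFNG and lower for HES1, beside 25.8% of all tested genes. Because the members were chosen with these comparisons known, nothing is read from these counts. In LC-2/ad the balance over all genes turned with the scaling, with 4319 higher and 3451 lower as deposited, 3442 and 4318 with median-of-ratios scaling, and 5216 and 2833 without mitochondrial transcripts. In TPC-1 the counts were 481 and 155 as deposited and 420 and 254 with median-of-ratios scaling. Of the members, NOTCH2 in LC-2/ad was the single one whose sign depended on the scaling.

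The rest of the pathway was followed in 61 other genes listed by role, all of which had a row. In LC-2/ad 46 of them passed the filter, 19 rose, 6 fell and 21 were not called. Of all genes tested there, 30.6% were called higher and 24.4% lower. The median log2 fold change was 0.18 (0.07 over all genes tested). Without mitochondrial transcripts the counts were 25 and 3 of 48, beside 5216 and 2833 of all 14359 genes tested. With median-of-ratios scaling they were 16 and 6 of 46, beside 3442 and 4318 of all 14104. In TPC-1 41 passed the filter, 1 rose, 1 fell and 39 were not called, with a median of 0.10 (0.05 over all genes tested). Of all genes tested in TPC-1, 3.75% were called higher and 1.21% lower. The list was drawn up with earlier results of these data known, so its counts are a description.

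The gamma-secretase complex makes the final cut that frees the Notch intracellular domain. In LC-2/ad 4 of 8 cleavage genes tested rose and none fell, beside 30.6% and 24.4% of all genes tested. NCSTN, the subunit that receives substrates, rose from 51.8 ± 2.2 to 82.5 ± 6.84 TPM (log2 fold change 0.66 ± 0.07, adjusted p = 0.000118). PSEN2, a catalytic subunit, rose by 0.32 ± 0.09 on the log2 scale (adjusted p = 0.0200). FURIN, the protease that cuts the receptor precursor in the Golgi, rose by 0.20 ± 0.04 (adjusted p = 0.00469). The call of PSEN2 was lost in 3 of the 14 alternatives, with adjusted p up to 0.0686, and that of FURIN with median-of-ratios scaling, at 0.0608. PSEN2 lost its call without parent library 3 and without treated library 3. In TPC-1 none of 9 cleavage genes was called by limma (4.96% of all genes tested), while 3 were higher at an unadjusted p under 0.05. The share of all TPC-1 genes at that unadjusted level is not given here, so nothing is read from this count.

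Of the sugar-modifying enzymes in LC-2/ad, RFNG, a fringe enzyme related to LFNG, rose from 41.4 ± 0.280 to 57.9 ± 3.29 TPM (0.47 ± 0.05 on the log2 scale, adjusted p = 0.000189). POFUT1, which adds the O-fucose that fringe enzymes extend, fell by 0.15 ± 0.06 on the log2 scale (adjusted p = 0.0478), a call lost in 7 alternatives, among them the fits without parent library 2 or 3 or treated library 1 or 2. The third fringe gene, MFNG, stayed under 1 TPM in LC-2/ad. Of 5 such genes tested in TPC-1 limma called 0 (4.96% of all genes tested). An unadjusted p under 0.05 was found for 1, again without the share over all genes, so nothing is read from it. Of the remaining ligands and receptors, DLK2, a non-canonical ligand, rose in LC-2/ad by 0.53 ± 0.15 on the log2 scale (adjusted p = 0.0183), a call lost without parent library 3 and without treated library 2. NOTCH4 did not exceed 0.0108 TPM in any library, and DLK1 was listed at 0 in all of them.

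In the nucleus, where limma called 3 of 7 activating genes in LC-2/ad (55% of all genes tested) and 0 of 5 in TPC-1 (4.96% of all, and 0 of these 5 at an unadjusted p under 0.05), RBPJ itself was not called in either line, at 46.7 ± 2.32 and 52.0 ± 5.26 TPM in LC-2/ad and 43.1 ± 1.62 and 40.7 ± 3.61 TPM in TPC-1, parent and treated. The coactivators CREBBP, a histone acetyltransferase, and MAML2, a Mastermind protein, rose in LC-2/ad by 0.64 ± 0.09 (adjusted p = 0.000576) and 0.52 ± 0.06 (adjusted p = 0.00027) on the log2 scale. SNW1, which can act as a coactivator with the Notch intracellular domain, fell by 0.19 ± 0.06 (adjusted p = 0.028), a call lost in 7 alternatives, among them the fits without parent library 2 or 3 or treated library 1 or 3. MAML1 was at 33.2 to 36.9 TPM in LC-2/ad. In TPC-1 it was listed at 3.69 TPM in parent library 1, at 0.418 and 0.0172 TPM in treated libraries 1 and 2, and at 0 in the other 3. How its reads were assigned is not given, so the TPC-1 level of MAML1 is uncertain.

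The corepressors hold Notch targets silent or work with HES proteins. In LC-2/ad 4 of 9 rose and 1 fell, where 30.6% and 24.4% of all genes tested did. The Groucho-type corepressors TLE2, TLE4 and TLE1 rose by 0.79 ± 0.07 (adjusted p = 6.16e-05), 0.69 ± 0.10 (adjusted p = 0.000826) and 0.27 ± 0.05 (adjusted p = 0.00241) on the log2 scale. CIR1, a corepressor that binds RBPJ, rose by 0.54 ± 0.06 (adjusted p = 0.00023). In TPC-1 TLE3, another Groucho-type corepressor, fell from 11.3, 14.7 and 14.5 to 7.32, 7.02 and 7.77 TPM (log2 fold change -0.78 ± 0.12, adjusted p = 0.00745). The treated TPC-1 libraries lay close together below every parent library. In LC-2/ad TLE3 had a log2 fold change of 0.00 ± 0.07 (adjusted p = 0.969).

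Of the genes of receptor trafficking and turnover, 7 of 14 tested rose and 2 fell in LC-2/ad, against 30.6% and 24.4% over all genes. DTX4, a Deltex ubiquitin ligase, rose from 27.2, 30.0 and 24.7 to 54.6, 47.2 and 52.4 TPM (log2 fold change 0.89 ± 0.08, adjusted p = 7.51e-05). MIB2, a ubiquitin ligase that acts on Notch ligands, rose by 0.72 ± 0.11 (adjusted p = 0.000974), DTX3 by 0.58 ± 0.10 (adjusted p = 0.00165) and NUMBL, a Numb-like adaptor, by 0.52 ± 0.13 (adjusted p = 0.0093) on the log2 scale. DTX4 was far lower in TPC-1, at 2.15 ± 0.289 and 2.37 ± 0.0867 TPM, and was not called there (adjusted p = 0.76). None of 12 genes of this role was called in TPC-1 by limma (4.96% of all genes tested). An unadjusted p under 0.05 was found for 2, again without the share over all genes, so nothing is read from it. Without TPC-1 parent library 1, 5 of 41 pathway genes were called in that line in place of 2. The number of all genes called also went up, from 636 of 12825 to 815 of 12820.

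The other HES genes moved in different lines. HES6, whose product is known to oppose HES1, fell in LC-2/ad from 9.85, 8.61 and 11.6 to 2.58, 2.77 and 4.12 TPM (log2 fold change -1.41 ± 0.17, adjusted p = 0.000228). In TPC-1 the groups of HES6 overlapped, at 3.52 ± 1.09 and 3.61 ± 0.860 TPM (adjusted p = 0.953). HES4 rose in TPC-1 from 11.3, 7.53 and 10.7 to 20.7, 22.9 and 20.3 TPM (log2 fold change 1.06 ± 0.14, adjusted p = 0.00383). In LC-2/ad the groups of HES4 overlapped, at 19.9 ± 2.13 and 17.8 ± 1.57 TPM (adjusted p = 0.25). In TPC-1 HES4 was the most abundant HES transcript measured both in parent cells, at 9.85 ± 2.03 TPM, and in treated cells, at 21.3 ± 1.39 TPM. HES2, HES5, HES7 and HEY2 did not reach 1 TPM in any library. HEYL was at 0.871, 0.739 and 0.704 TPM in LC-2/ad parent libraries and 1.47, 1.10 and 1.08 TPM in treated ones. The treated libraries were all higher, but HEYL did not pass the filter and was not tested. In TPC-1 HEYL was listed at 0 throughout. Of the factors that HES proteins are known to repress, ATOH1, NEUROD1 and NEUROG3 were at most 0.0832 TPM in every library, also where HES1 was lower.

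**Figure D4:**
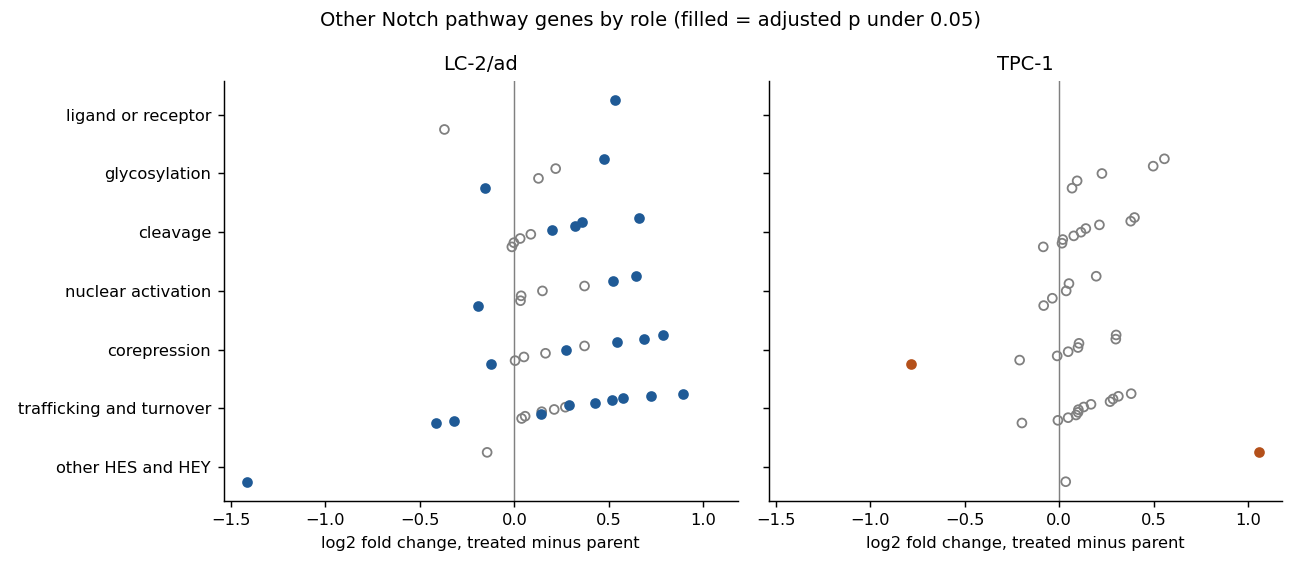
Log2 fold change of log2(TPM + 1), treated minus parent (horizontal axis), of every tested pathway gene outside the 10 members, by role (rows) and line (panels); filled points passed an adjusted p of 0.05 and open points did not. In LC-2/ad 25 of 46 points are filled, with HES6 farthest to the left, and in TPC-1 only HES4 and TLE3 of 41.

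To compare the responses, the log2 fold change in LC-2/ad was subtracted from that in TPC-1 in a single fit, where a constant offset between the tables cancels. Of 38 other pathway genes testable in both lines, 14 differed, 4 with a higher and 10 with a lower value in TPC-1. Of all 11996 genes tested, 36.6% differed, 2660 with a higher and 1733 with a lower value in TPC-1. Without mitochondrial transcripts, 16 of 39 differed, 2 higher and 14 lower, beside 2066 higher and 2302 lower of all 12114 genes tested. With median-of-ratios scaling, 17 of 38 differed, 6 higher and 11 lower, beside 3087 and 1633 of all 11989. With the deposited scaling, the difference was 1.45 ± 0.29 for HES6 (adjusted p = 0.00173) and 1.20 ± 0.19 for HES4 (adjusted p = 0.000259). It was -0.79 ± 0.14 for DTX4 (adjusted p = 0.000777) and -0.79 ± 0.14 for TLE3 (adjusted p = 0.000769). Both HES differences were positive, HES6 through a fall in LC-2/ad and HES4 through a rise in TPC-1, and likewise DTX4 had risen in LC-2/ad while TLE3 had fallen in TPC-1.

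**Figure D5:**
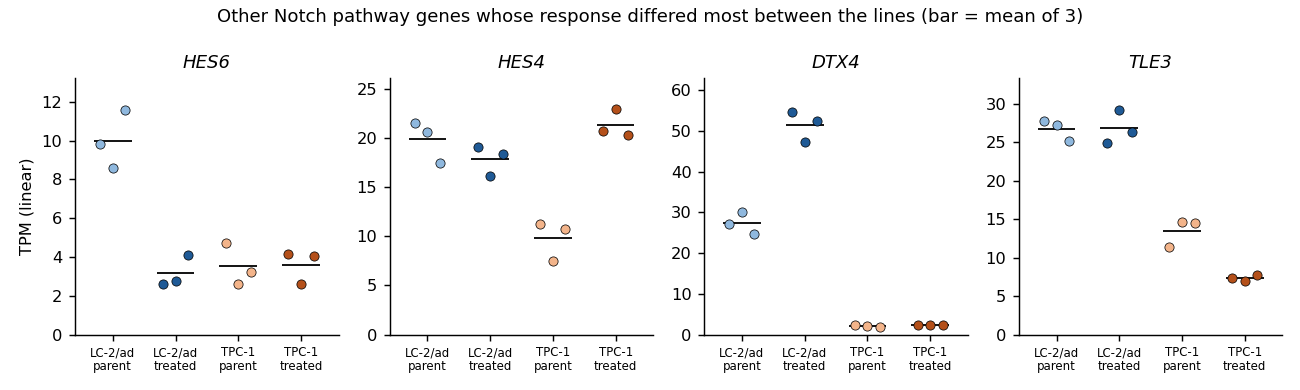
TPM (linear axes from 0) of HES6, HES4, DTX4 and TLE3 in every library of the 4 groups; each point is 1 library and each bar the mean of 3. HES6 and DTX4 separated by treatment in LC-2/ad, and HES4 and TLE3 in TPC-1.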

How the data were processed

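RNA-seq values were read for 12 libraries. The authors deposited TPM per gene and library, in a table for each line, and each column sums to 1e+06 TPM within rounding. Tools listed in the submitters' processing notes are Salmon and bcl2fastq (version 2.20.0), with GRCh38 as the build, and no roles are stated. The annotation, strand setting and the way transcripts were summed to genes are not given in the sources used here. Groups came from the sample labels, which name no separate cultures, so a p-value reflects the variation among libraries of a group, which may be technical. The members and gene lists were chosen with earlier results of these data known.

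For each line log2(TPM + 1) was fitted using R 4.3.3 and its package limma 3.58.1 (a linear model with eBayes and its trend option), keeping genes whose mean over 6 libraries was at least 1 TPM. Tests were two-sided, adjusted by Benjamini-Hochberg over all genes tested, with a threshold of 0.05. A fold change is treated minus parent with its SE. The difference between lines came from a joint fit of the 12 libraries, keeping genes whose mean reached 1 TPM in each line. For the members the fit gives a difference and its SE, and a count past the threshold serves as a description, not as a test. Of the other genes, up to 4 called genes per line and role with the largest change were named, and up to 4 for the difference between lines. A gene named outside this rule (RBPJ, MAML1, MFNG, NOTCH4, DLK1, HEYL and the undetected HES and repressed factors) was chosen after its values were seen. A few listed genes are not reported here. Tables were read with data.table (version 1.17.8), pandas 2.3.3 and numpy 2.4.6, figures drawn with matplotlib 3.10.9, and the fits checked on simulated data. Alternatives were a pseudocount of 0.1 or 5, no filter or 5 TPM, median-of-ratios scaling, no mitochondrial genes, no variance trend, a replicate block and leaving out each library. Coordinates are those of GENCODE 29, and promoter sequences were RefSeq's (GRCh38.p14).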

Additional observations from a re-analysis of the deposited data

Results flagged for a closer look

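Of the 14 pathway genes outside the members whose response differed between the lines (limma, Benjamini-Hochberg over all genes tested), 12 are named in the report. With the LC-2/ad log2 fold change subtracted from that of TPC-1, the difference was 1.45 for HES6 (adjusted p = 0.00173) and 1.20 for HES4 (adjusted p = 0.000259). It was -0.79 for both DTX4 (adjusted p = 0.000777) and TLE3 (adjusted p = 0.000769). CIR1 differed by -0.55 (adjusted p = 0.00242), MAML2 by -0.47 (adjusted p = 0.00919), NCSTN by -0.44 (adjusted p = 0.00728), RFNG by -0.38 (adjusted p = 0.00582) and FURIN by -0.29 (adjusted p = 0.0085), each having risen in LC-2/ad. CREBBP (-0.45, adjusted p = 0.0244), TLE4 (-0.39, adjusted p = 0.0377) and POFUT1 (0.22, adjusted p = 0.0468) also differed. Of 21 settings, the one reported included, CREBBP was called in 15, TLE4 in 10 and POFUT1 in 8, whereas the other 9 were called in each setting that tested them. The CREBBP call was lost without LC-2/ad parent library 3 or treated library 1 or 2 and without TPC-1 parent library 1 or treated library 2 or 3. The TLE4 call was lost without any 1 of 8 libraries, and that of POFUT1 without any 1 of 10. TLE4 was not called in either direction in TPC-1, where its treated libraries were nonetheless all higher.

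NRARP was lower after treatment in one line and higher in the other, with a ratio of mean TPM (treated over parent) of 0.274 for LC-2/ad and 2.37 for TPC-1, and all libraries of each line on the side of that ratio. The difference was not tested, since NRARP was under 1 TPM in every TPC-1 library.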

How the results depend on the processing

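No value changed from a call in one direction to a call in the other. For the members, where a count past the threshold is only a description, 6 of 9 were past it in LC-2/ad, beside 7770 of all 14118 genes tested. With a minimum of 5 TPM, which 6 members met, 3 were past it, beside 6825 of all 10945. The count was 7, with JAG1 added, in 4 alternatives. These were a pseudocount of 0.1, no mitochondrial genes, no variance trend and leaving out treated replicate 3. In TPC-1 the number of all genes called, 636, was 272 with no filter and 356 with no variance trend, and 292 to 815 when each library was left out in turn. Leaving out 1 library gave 1 to 2 members and 2 to 5 other pathway genes called in TPC-1, with the highest counts without parent replicate 1, which adds POGLUT1, ADAM10 and NUMBL, and 2 members also without treated replicate 3. HES4 and TLE3 in TPC-1 were called in every alternative. Of the other genes' values, 871 were the same, 53 lost a call and 9 gained one. Same-numbered libraries showed little shared deviation (correlations -0.05 to 0.05). With 3 libraries per group this cannot exclude a shared culture or preparation, and the labels do not say whether the numbers pair libraries. A fit with the replicate number as a block called 7357 genes, 23 other pathway genes and 6 members in LC-2/ad. For TPC-1 these counts were 542, 3 and 1. It called 4227 genes and 13 pathway genes for the difference between the lines. The depth is unknown, so values under 1 TPM, among them those of HEY1 and of DLL1, NOTCH3 and NRARP in TPC-1, have no counting error to set them against.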
